A study of Rattus norvegicus with 4 samples.

Results

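NKCC1, the cation-chloride cotransporters related to it and the WNK and SPAK kinases that control them were examined in surface colonocytes, the absorptive epithelial cells facing the lumen of the distal colon. The 9 genes were given by name, and each was found by its symbol among the rows of an Affymetrix rat exon array. They are 9 of the 13215 genes that had a row under a single symbol, and 1 row served each of them. The 4 cotransporter genes are Slc12a2 (row 7170785), Slc12a4 (row 7185012), Slc12a7 (row 7045501) and Slc12a8 (row 7094030). The 5 kinase genes are Wnk1 (row 7269066), Wnk2 (row 7156052), Wnk4 (row 7072269), Stk39 (row 7239857) and Oxsr1 (row 7350871).

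The cells came from Wistar rats aged 12 weeks, all of them adrenalectomized on both sides 4 days earlier and drinking 0.9% NaCl. In the aldosterone group, 2 rats received 50 µg aldosterone per 100 g body weight under the skin, and a minipump gave them 10 µg/kg each hour. In the vehicle group, 2 rats received the injection vehicle and a pump of polyethylene glycol. After 2 h the colon was removed, and the cells were shaken off over 40 min with 100 nM aldosterone or vehicle in the bath, so that the hormone acted both in the animal and outside it. Both groups lacked their adrenal glands, and the vehicle rats therefore stand for a state without adrenal steroids rather than for an intact rat. The comparison asked which genes aldosterone changes in these cells, and each rat gave 1 array.

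NKCC1 carries sodium, potassium and chloride together into the cell across the basolateral membrane, and in the colon it is known as the entry step that loads epithelial cells with chloride for secretion. The potassium-chloride cotransporters of the same family run outward and lower cell chloride and volume. WNK kinases respond to chloride and osmolarity and phosphorylate SPAK (the product of Stk39) and OSR1 (the product of Oxsr1). These kinases in turn phosphorylate the cotransporters, which activates NKCC1 and inhibits the potassium-chloride cotransporters. That control acts on protein, whereas the arrays measured RNA.

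Slc12a2, the NKCC1 gene, was higher in both aldosterone rats, and none of the other members followed it closely. Among the kinases Stk39 was higher in both aldosterone rats but by very unequal amounts. Among the outward cotransporters Slc12a4 was lower in both, with aldosterone values near the floor of the arrays. The other 6 members overlapped between the groups. The share of members that did not overlap is close to the background, since the groups did not overlap in 27.8% of all rows. Levels are log2 values deposited by the authors, in which a step of 1 is a doubling on the linear scale, and differences are aldosterone minus vehicle. Levels of different genes are not set against each other, because each row has its own probes.

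Slc12a2 measured 4.66 and 4.17 in the vehicle rats, against 6.33 in each of the aldosterone rats. The groups lay far apart, and the aldosterone rats differed from each other by 0.0051, against 0.49 between the vehicle rats. The difference was 1.91 on the log2 scale (SE 0.20, 95% interval 1.38 to 2.45), a level 3.77-fold higher in the aldosterone rats. Of the 4815 rows whose mean over the arrays was 4 or more, 20 rows (0.415%), Slc12a2 included, had a difference at least as large in the upward direction. In limma with a constant prior spread, Slc12a2 did not pass the threshold of 0.05 (adjusted p = 0.438), and neither did any other of the 19403 rows (0%). At an unadjusted p under 0.05 that fit held 879 rows, or 4.53%. With a prior spread that follows the expression level, Slc12a2 rose at an adjusted p = 0.0494, at rank 21 of the 21 rows called (0.108%). With that prior and without vehicle replicate 1 its adjusted p was 0.142, and without vehicle replicate 2 it was 0.431. Over all alternative settings the adjusted p ran from 0.00197 to 1.00, while the difference stayed between 1.67 and 2.16.

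**Figure D1:**
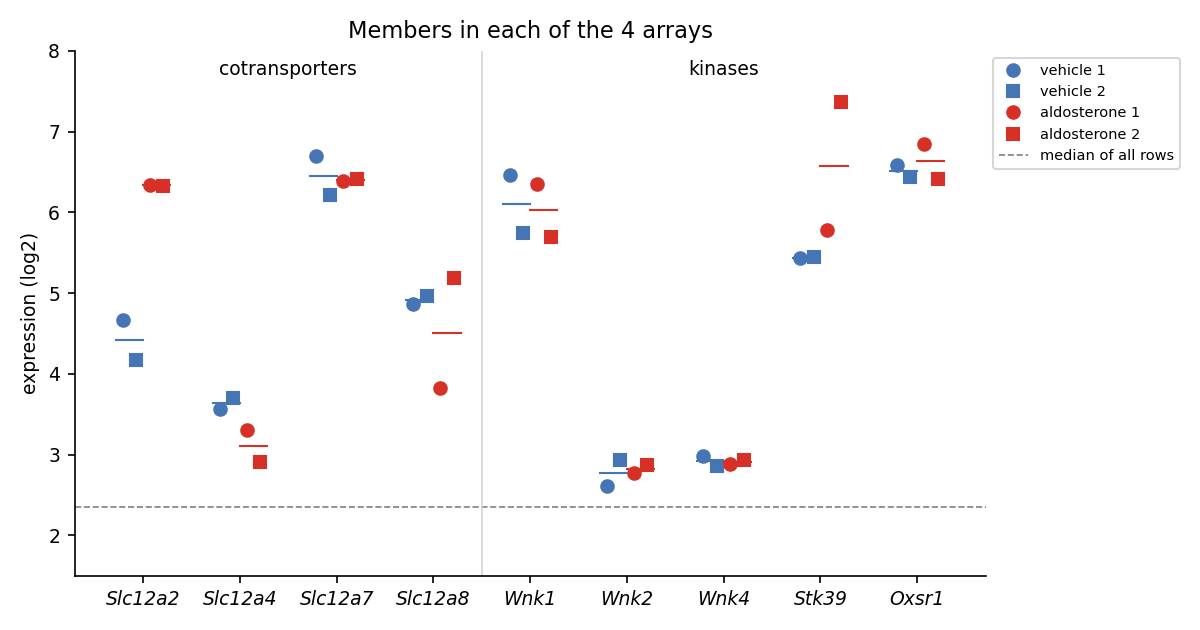
Expression (log2) of the 4 cotransporter and 5 kinase genes in each of the 4 arrays, with blue for vehicle, red for aldosterone, circles for replicate 1 and squares for replicate 2. Short lines are group means (n = 2) and the dashed line is the median of all row means, 2.35. Slc12a2 stands at 6.33 in both aldosterone rats against 4.66 and 4.17 in the vehicle rats, and Stk39 reaches 7.36 in 1 aldosterone rat.

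The starts of the Slc12a2 and Stk39 genes are shown because these were the cotransporter and the kinase whose values were higher in both aldosterone rats. Each window runs from 250 bases before the start of the gene to 50 after it, 5′ to 3′ along the gene, from RefSeq on GRCr8. That of Slc12a2 lies at chr18:53546083-53546382 (plus strand) and that of Stk39 at chr3:73586930-73587229 (minus strand). Capitals mark GGGCGG, the letters of a GC box, and its reverse complement CCGCCC.
Slc12a2: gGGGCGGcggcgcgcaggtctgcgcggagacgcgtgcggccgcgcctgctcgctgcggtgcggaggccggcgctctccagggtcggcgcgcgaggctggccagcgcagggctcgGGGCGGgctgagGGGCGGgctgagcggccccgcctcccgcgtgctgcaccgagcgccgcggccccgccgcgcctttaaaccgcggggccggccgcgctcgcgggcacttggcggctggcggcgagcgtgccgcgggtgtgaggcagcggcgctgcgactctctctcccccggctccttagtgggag
Stk39: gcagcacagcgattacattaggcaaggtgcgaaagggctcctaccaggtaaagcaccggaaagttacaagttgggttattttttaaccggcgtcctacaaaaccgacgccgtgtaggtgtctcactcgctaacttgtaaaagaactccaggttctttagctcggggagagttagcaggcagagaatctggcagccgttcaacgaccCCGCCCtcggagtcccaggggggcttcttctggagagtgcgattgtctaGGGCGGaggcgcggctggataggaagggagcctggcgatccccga

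The Slc12a2 window was 80.7% G and C with 52 CpG pairs, where the median of all 33469 windows of the same length was 51.7% and 7 pairs. Of all windows, 99.5% had fewer CpG pairs than that of Slc12a2. The Stk39 window was 56.0% G and C with 20 CpG pairs. GGGCGG occurred 3 times in the Slc12a2 window, all on the strand shown, and 2 times in that of Stk39, once on each strand. On either strand it was found in 7 of the 9 members and in 33.1% of all windows. All 9 member windows held more G and C than the median window, from 54.3% in Slc12a8 to 80.7% in Slc12a2. The shares over all windows, here and below, were not matched for this. The palindrome to which corticosteroid receptors are known to bind, searched as the arms GNACA and TGTNC around any 3 bases, was found on either strand in 0 of the 9 and in 0.439% of all windows. The single site TGTTCT, whose first letters can overlap the right arm of the palindrome, was found in 0 of the 9 and in 20.7% of all windows. These matches describe letters in a short window and say nothing of sites elsewhere in the genes.

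Of the outward cotransporters, Slc12a4 was lower in both aldosterone rats and Slc12a7 overlapped between the groups. Slc12a4 encodes KCC1, the widely expressed potassium-chloride cotransporter. Its values were 3.56 and 3.70 with vehicle and 3.31 and 2.91 with aldosterone. Both aldosterone rats were below both vehicle rats, by 0.52 on the mean (interval -1.00 to -0.043), which was more than the gap between the rats within either group, 0.14 with vehicle and 0.39 with aldosterone. It did not pass the threshold (limma adjusted p = 1.00, unadjusted p = 0.0387), and with the prior that follows the level the interval was -1.09 to 0.047. The difference was -0.33 without aldosterone replicate 2 and -0.72 without aldosterone replicate 1, and both aldosterone values lay within 1 of the median of all row means, 2.35, near the floor. Slc12a7 encodes KCC4, another potassium-chloride cotransporter. Its values were 6.69 and 6.22 with vehicle and 6.38 and 6.42 with aldosterone. The aldosterone rats lay between the vehicle rats, and the difference was -0.056 (interval -0.58 to 0.47), which turned to 0.0012 with quantile normalization.

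Slc12a8, a distant member of the family, read 4.87 and 4.96 with vehicle and 3.83 and 5.18 with aldosterone. The aldosterone rats lay on either side of the vehicle rats, with the lower value in replicate 1. Its difference of -0.41 (interval -1.74 to 0.92) was -1.09 without aldosterone replicate 2 and 0.27 without aldosterone replicate 1. The gap of 1.36 between its aldosterone values was matched or exceeded by 153 of the 4815 rows averaging 4 or more (3.18%). The goblet cell gene Tff3, which encodes a mucus-associated trefoil peptide, was also lowest in aldosterone replicate 1, at 9.44 against 11.1 and 10.7 in the vehicle rats and 11.3 in aldosterone replicate 2. The other goblet cell markers were not alike in that rat: Agr2, an isomerase gene of mucus-secreting cells, was lowest there too (7.69), whereas the mucus gene Zg16 stood at 6.39 against 5.14 and 4.45 in the vehicle rats, and Spink4 was near the floor in all rats. The part of goblet cells in the Slc12a8 values was not tested.

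Among the kinases Stk39, the gene of SPAK, was the member with the largest difference. Vehicle rats had 5.43 and 5.44, and aldosterone rats 5.78 and 7.36. Both aldosterone rats were above both vehicle rats, but the gap between the aldosterone rats, 1.59, was larger than the difference between the groups, 1.13. A gap of that size or more was found in 92 of the 4815 rows averaging 4 or more (1.91%). The interval of the difference was -0.41 to 2.68 with the constant prior (limma adjusted p = 1.00) and 0.17 to 2.09 with the prior that follows the level (adjusted p = 0.915). Without aldosterone replicate 2 the difference was 0.34, and without aldosterone replicate 1 it was 1.93 with an adjusted p of 0.00135 in limma with the prior following the level. In that last fit the spread came from the vehicle rats alone, whose Stk39 values differed by 0.0070. The size of the Stk39 difference thus rested on 1 rat. In aldosterone replicate 2 Zg16 stood at 8.06 against 6.39 in the other aldosterone rat and 5.14 and 4.45 in the vehicle rats. Agr2 was also highest there, at 8.52 against 7.69 to 7.91 in the other rats, and so was Tff3, at 11.3. The part of goblet cells in the Stk39 values was not tested.

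Oxsr1, the gene of OSR1 and closest relative of Stk39, did not share its pattern. Its values were 6.59 and 6.43 with vehicle and 6.85 and 6.41 with aldosterone. The groups overlapped, with a difference of 0.12 (interval -0.40 to 0.64), which was -0.0999 without aldosterone replicate 1. In aldosterone replicate 2, where Stk39 was highest, Oxsr1 had its lowest value.

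The WNK genes, which act above SPAK and OSR1, overlapped between the groups. Wnk1 read 6.46 and 5.74 with vehicle and 6.35 and 5.70 with aldosterone. It was high in replicate 1 and low in replicate 2 of both groups, by 0.72 and 0.65, and its difference between groups was -0.077 (interval -1.05 to 0.89). Without vehicle replicate 1 that difference was 0.28, and without aldosterone replicate 2 it was 0.25. Wnk4, known for its control of salt transport in the kidney, lay at 2.98 and 2.86 with vehicle and 2.89 and 2.94 with aldosterone. Wnk2, known chiefly from the brain, lay at 2.61 and 2.94 with vehicle and 2.77 and 2.87 with aldosterone. All values of Wnk2 and Wnk4 were within 1 of the median of all row means, 2.35, so that they are near the floor of the arrays. Their differences were 0.049 and -0.010, and the sign of that of Wnk2 turned to -0.0085 when arrays were centred on their medians.

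**Figure D2:**
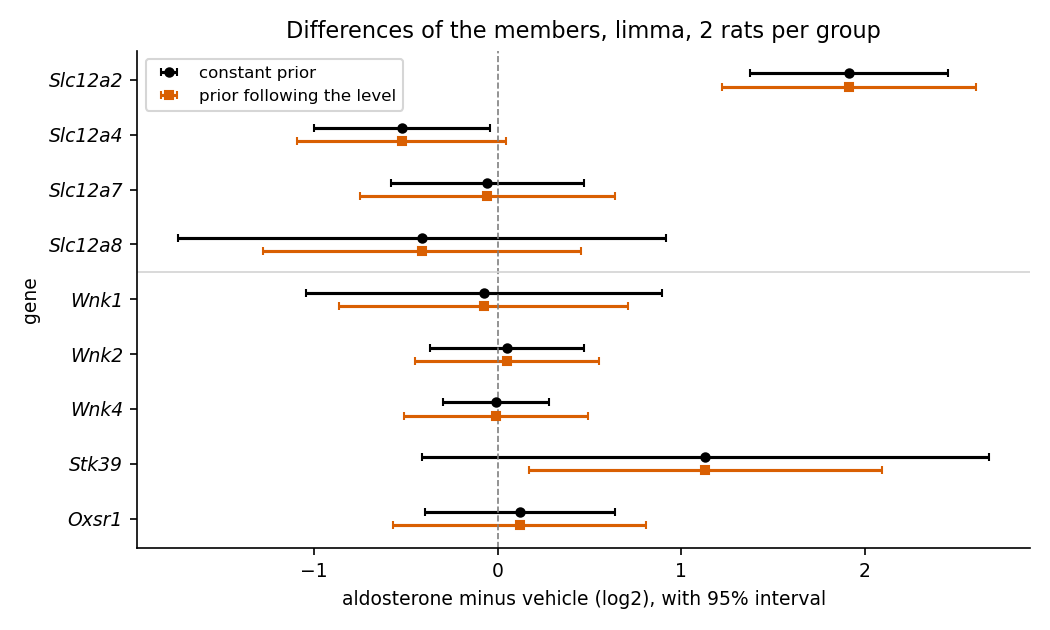
Difference between aldosterone and vehicle (log2, n = 2 rats per group) for each member, with 95% intervals from limma with a constant prior (black circles) and with a prior following the expression level (orange squares). Both intervals of Slc12a2 lie above 1, and those of Stk39 run from -0.41 to 2.68 and from 0.17 to 2.09.

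Counted over the 9 members, 0 passed in limma with the constant prior, and 2 had an unadjusted p under 0.05 (Slc12a2 higher and Slc12a4 lower), beside 4.53% of all rows. With the prior that follows the level 1 rose (Slc12a2), 0 fell and 8 did not pass, where 0.108% of all rows were called and 0.0928% rose. The groups did not overlap in 3 members, 2 of them higher (Slc12a2 and Stk39) and 1 lower (Slc12a4). That is close to the background, since 27.8% of all rows, and 32.1% of those with a mean of 4 or more, were apart in this way. By direction, 16.7% of all rows were apart and higher with aldosterone and 11.1% apart and lower. The median difference was -0.23 over the 4 cotransporters and 0.049 over the 5 kinases, beside 0.024 over all rows. Neither median describes Slc12a2, which was the single cotransporter with a positive difference. Of the 9 members, 6 had a mean of 4 or more, and Slc12a4, Wnk2 and Wnk4 did not.

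**Figure D3:**
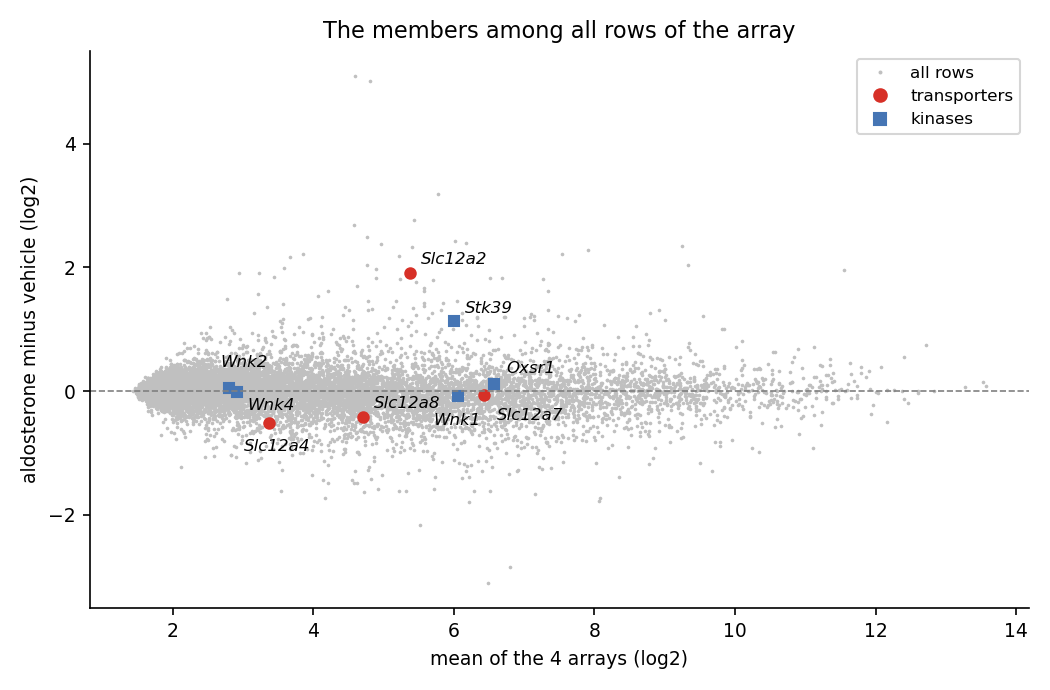
Difference between aldosterone and vehicle (log2) against the mean of the 4 arrays (log2) for all 19403 rows (grey), with cotransporters as red circles and kinases as blue squares. Slc12a2, at 1.91, lies at the upper edge of the rows of its level and Stk39, at 1.13, below it, while the other 7 members lie between -0.52 and 0.12.

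Within each array the NKCC1 gene was then set against its kinases. The gap is the Slc12a2 value minus theirs, with its sign, and only its change was read. Slc12a2 minus the mean of the 5 kinases came to -0.15 and -0.51 with vehicle and to 1.41 and 1.27 with aldosterone. The groups lay apart, and the gap rose by 1.67. Wnk2 and Wnk4 lie near the floor, and with Wnk1, Stk39 and Oxsr1 alone the gap rose by 1.52. The mean of the kinases itself was 4.81 and 4.68 with vehicle and 4.93 and 5.06 with aldosterone, a difference of 0.24. Without Stk39 the mean of the other 4 kinases was 4.66 and 4.49 with vehicle and 4.72 and 4.48 with aldosterone, a difference of 0.021 with overlapping groups. The mean of all 4 cotransporters, Slc12a2 included, differed by 0.23, beside the 0.24 of the kinases. The mean of the 3 cotransporters other than Slc12a2 was 5.04 and 4.96 with vehicle and 4.50 and 4.84 with aldosterone. The groups lay apart, with a difference of -0.33, but the 3 genes did not move alike. Slc12a4, with aldosterone values near the floor, was lower in both aldosterone rats. Slc12a8 overlapped between the groups, at 3.83 and 5.18 with aldosterone, and Slc12a7 differed by -0.056.

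Taken one kinase at a time, Slc12a2 minus the kinase rose by 1.99 for Wnk1 and by 1.79 for Oxsr1. For both of these the groups lay apart. Wnk1 and Oxsr1 themselves differed by only -0.077 and 0.12, so their gaps largely restate the Slc12a2 difference. The same holds for Wnk2 and Wnk4, which also lie near the floor. For Stk39 the gap was -0.77 and -1.27 with vehicle, and 0.56 and -1.03 with aldosterone. The groups overlapped there, since Stk39 in aldosterone replicate 2 stood as far above its vehicle mean (1.93) as Slc12a2 did (1.91). Against Slc12a7 the gap rose by 1.97. Slc12a7 itself differed by only -0.056, so this rise largely restates the Slc12a2 difference. Slc12a2 minus Slc12a7 was -2.03 and -2.04 with vehicle, and -0.047 and -0.087 with aldosterone, with little spread within groups. Between replicates 1 and 2 of the vehicle group, Slc12a2 differed by 0.49 and Slc12a7 by 0.47. Differences of that size were ordinary, since their SD between the vehicle rats was 0.48 over the 4815 rows averaging 4 or more. No test was made of these gaps, because the members were chosen with results of these arrays known.

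**Figure D4:**
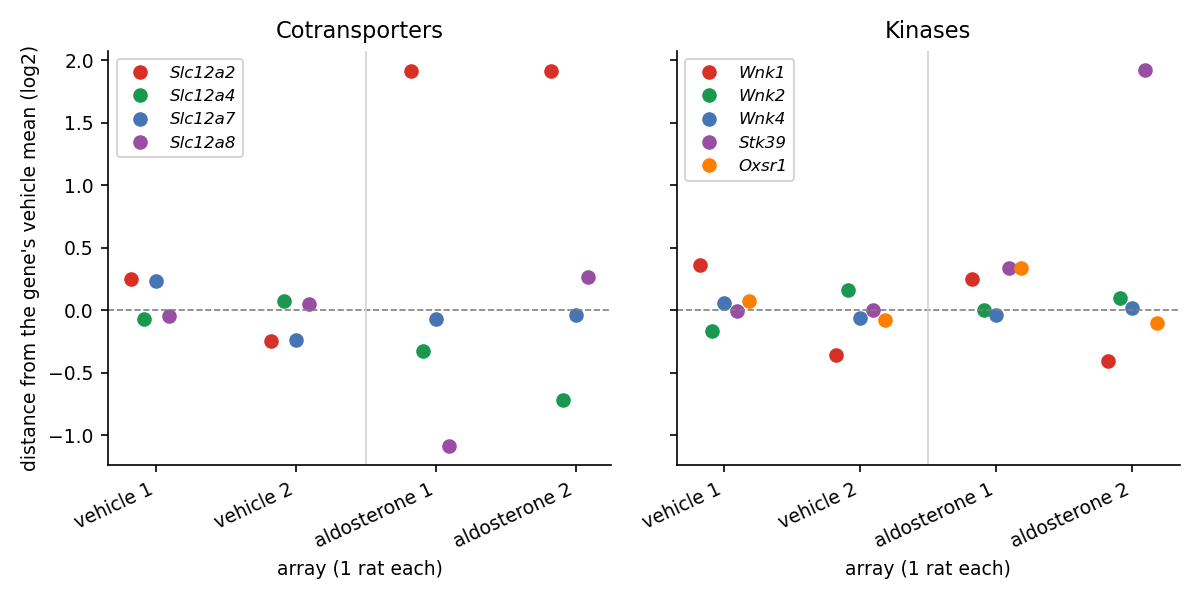
Distance of each gene from its own vehicle mean (log2) in each of the 4 arrays, for the cotransporters (left) and the kinases (right), 1 point per gene and array. Slc12a2 is 1.91 or more above its vehicle mean in both aldosterone rats, whereas among the kinases only Stk39 in aldosterone replicate 2 comes near that distance, at 1.93.

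The gene with the profile most like that of Slc12a2 was Sgk1, the aldosterone-induced kinase that holds sodium channels at the cell surface and is also known to act on WNK4. Likeness was the root mean square distance between values centred on each gene's mean over the 4 arrays, among 4131 other genes with a mean of 4 or more. Sgk1 (distance 0.22) stood at 10.51 and 10.64 with vehicle and 12.54 and 12.52 with aldosterone, a difference of 1.95 beside the 1.91 of Slc12a2. Between the vehicle rats Sgk1 was higher in replicate 2, whereas Slc12a2 was higher in replicate 1. Next were Akr1c14, an aldo-keto reductase gene that acts on steroids (0.23), and Gemin7, a gene of the machinery that assembles spliceosomal particles (0.25). The DNA repair gene Dclre1b (0.27) and the stress kinase gene Map3k5 (0.28) followed. All 5 were higher in both aldosterone rats, which the choice by likeness fixes.

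Genes that regulate WNK and SPAK were followed as a list of 20, of which 13 were measured. Sgk1 and Tsc22d3 rose with the prior that follows the level (limma adjusted p = 0.000558 and 0.00258), 0 fell and 11 did not pass, and 0 passed with the constant prior, in which 3 had an unadjusted p under 0.05. Over all rows 0.108% were called with the former prior, and 4.53% had an unadjusted p under 0.05 with the latter. Tsc22d3, the gene of the steroid-induced leucine zipper protein GILZ, stood at 7.93 and 8.20 with vehicle and 10.39 and 10.44 with aldosterone. Its relative Tsc22d2, of a family known to bind pseudokinases that act with the WNK kinases, lay at 5.92 and 5.98 with vehicle and at 5.54 and 4.88 with aldosterone (difference -0.74, unadjusted p = 0.0403). Aatk, whose kinase binds SPAK, lay at 2.58 and 2.88 against 3.03 and 3.04, close to the floor. The median difference of the list was 0.021, over a range from -0.74 to 2.35. The others of the Slc12 and WNK families had 3 measured genes of 6, of which 0 passed in limma with either prior and 0 had an unadjusted p under 0.05. Slc12a3, the thiazide-sensitive cotransporter of the kidney, lay at 2.64 and 2.85 with vehicle and 2.86 and 2.96 with aldosterone. Slc12a1, the NKCC2 gene, and Slc12a5, the neuronal KCC2 gene, lay between 1.76 and 2.68 in all 4 rats, also near the floor.

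Partners of NKCC1 in chloride secretion were measured in 11 of 14 cases. In limma 0 passed with either prior, and an unadjusted p under 0.05 was reached by 2 with the constant prior and 3 with the prior following the level. Over all rows these shares were 4.53% and 4.67%. The difference was positive in 8 and negative in 3, with a median of 0.28, where 58.3% of all rows and 44.5% of those averaging 4 or more had a positive difference. The groups lay apart in 7 of them, 6 higher and 1 lower, beside 27.8% of all rows (16.7% higher and 11.1% lower). Kcne3 encodes the subunit that turns Kcnq1 into the basolateral potassium channel of secreting cells. It stood at 2.93, near the floor, and 3.63 with vehicle and at 4.29 and 4.36 with aldosterone (difference 1.04). With the constant prior its interval was 0.32 to 1.77 (limma adjusted p = 0.886), and with the prior following the level 0.39 to 1.69 (adjusted p = 0.524). Kcnq1 itself stood at 5.05 and 4.99 with vehicle and 5.21 and 5.52 with aldosterone. Best2, an anion channel gene of colonic goblet cells, was near the floor with vehicle, at 2.02 and 2.02, and stood at 3.08 and 3.95 with aldosterone. The anion exchanger gene Slc4a2 lay at 7.49 and 7.48 with vehicle and 7.26 and 7.10 with aldosterone. Cftr, the apical chloride channel through which NKCC1-loaded chloride leaves, was named after its values were seen. It lay at 1.74 and 1.87 with vehicle and at 2.27 and 2.01 with aldosterone, apart and higher. It was 1 of the 3 at an unadjusted p under 0.05 with the prior following the level (limma unadjusted p = 0.0198). All 4 values were below the median of all row means.

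Genes of cell volume and osmolytes were measured in 9 of 13 cases. In limma 0 passed with either prior, and 2 had an unadjusted p under 0.05 in each fit, beside 4.53% and 4.67% of all rows. Their median difference was -0.15, with 3 positive and 6 negative beside the 58.3% of all rows that were positive. Of the 9 genes, 8 averaged 4 or more. Among all rows of that level 44.5% were positive, and the median difference was -0.041. Map3k5, whose kinase ASK1 responds to osmotic and oxidative stress, stood at 4.02 and 3.51 with vehicle and 5.23 and 5.03 with aldosterone. Akr1b1, aldose reductase, which makes the osmolyte sorbitol, stood at 4.78 and 4.13 with vehicle and 5.85 and 5.78 with aldosterone. Both lay apart between the groups, with a difference of group means of 1.36 each (limma adjusted p = 0.226 and 0.313 with the prior following the level). The water channel genes Aqp8 and Aqp3 differed by 0.29 and -0.25.

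**Figure D5:**
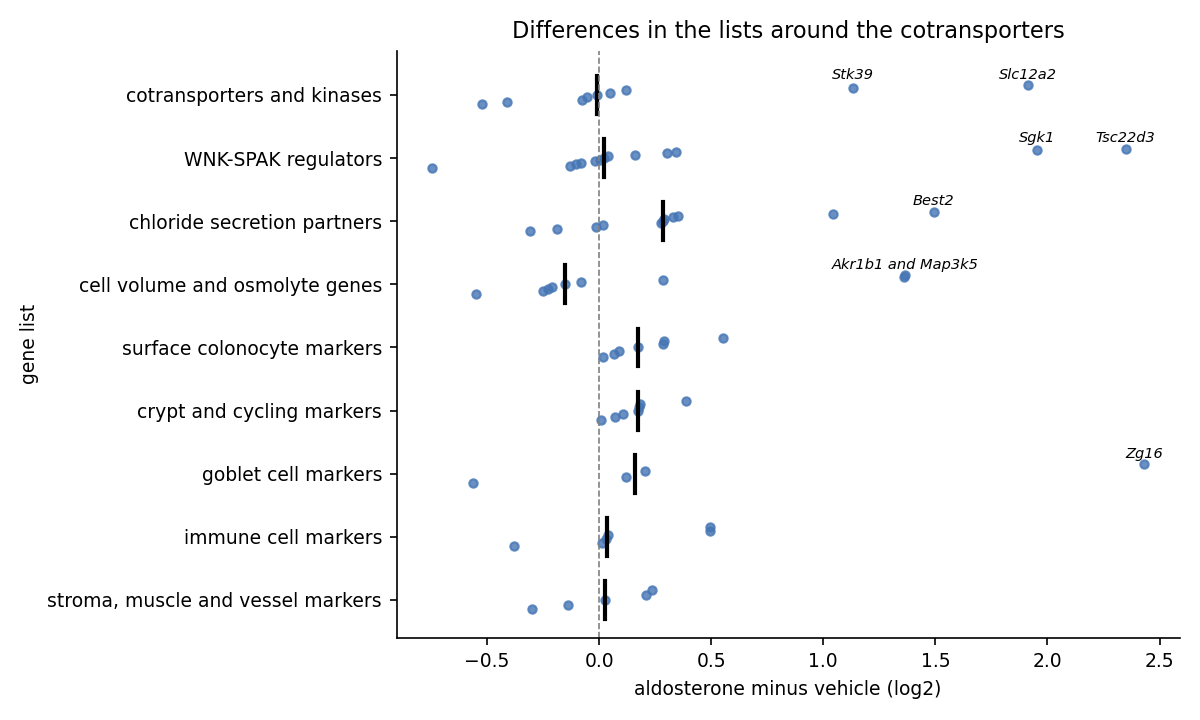
Difference between aldosterone and vehicle (log2) of each measured gene in the lists around the cotransporters, 1 point per gene, with the list median as a black bar and genes beyond 1.1 named. Slc12a2, Sgk1 and Tsc22d3 lie far from the medians of their lists, which are -0.010 and 0.021.

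All 7 measured markers of surface colonocytes stood between 9.38 and 12.7, far above the floor of the arrays, so that the labelled cell type's own markers were present. The goblet cell markers Tff3 and Agr2 were also far above the floor. The 7 measured markers of crypt and cycling cells stood between 1.62 and 2.82, at or near the floor. NKCC1 is known to be abundant toward the crypt base, so these values are given beside it. Crypt markers differed by 0.0078 to 0.39 (7 of 7 positive, median 0.17, beside 58.3% positive and a median of 0.024 over all rows), 0 of 7 passed in limma with either prior (1 and 0 at an unadjusted p under 0.05), and their summed linear level was 28.3 to 33.4 with vehicle and 33.2 to 36.0 with aldosterone. For surface markers the differences were also positive in 7 of 7 (median 0.17), beside 44.5% of the rows averaging 4 or more, and 0 passed with either prior (1 at an unadjusted p under 0.05 in each, Slc26a3). The 4 measured goblet cell markers summed to 1976 to 2508 with vehicle and 989 to 3162 with aldosterone. Differences were positive in 3 of 4, beside 58.3% of all rows and 44.5% of those averaging 4 or more. In limma 0 passed, and 1 (Zg16) had an unadjusted p under 0.05 in each fit, beside 4.53% and 4.67% of all rows. Zg16 was the one that lay furthest apart, 2.43 higher with aldosterone (limma adjusted p = 0.134 with the prior following the level). Immune markers (6 measured) summed to 34.7 to 42.7 with vehicle and 38.0 to 52.0 with aldosterone. Stroma, muscle and vessel markers (5 measured) summed to 28.8 to 33.7 and 29.2 to 34.1, and enteroendocrine and tuft cell markers (8 measured) to 59.4 to 69.3 and 67.7 to 70.3. The part of these cells in the Slc12a2 difference was not tested. In such bulk samples more cells of a type and more RNA per cell cannot be told apart.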

How the data were processed

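Per the labels, RNA depleted of ribosomal RNA from surface colonocytes of 4 rats, 2 per group and each a separate animal, was hybridized to exon arrays. The values deposited by the authors are log2 expression values, 1 per row and array. The submitters' processing notes name Partek, RMA and Affymetrix Expression Console without version or order. The log2 scale was read from the range, 1.36 to 13.7. Genome build and detection calls: not given in the sources used here. Rows near background were therefore recognised by level. Array number limits the precision.

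Of 19403 rows, 13327 had 1 gene symbol in the platform annotation. The highest-mean row of a gene was used. Aldosterone was compared with vehicle in limma 3.58.1 (R 4.3.3), two-sided, with a constant prior spread and Benjamini-Hochberg adjustment over all rows. Scripts were tested on simulated data. Alternatives were a prior following the level, robust or no moderation, other normalization, filters, a replicate block, the mean over a gene's rows and leaving out each array. The members and lists were chosen with earlier results of these data known. Named are all members, up to 4 genes per list by smallest p and the 5 most like Slc12a2; of the cell type markers, some are given by range. Plots used Python 3.11.15 and matplotlib 3.10.9.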

Additional observations from a re-analysis of the deposited data

How the results depend on the processing

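The Slc12a2 difference kept its direction under all 18 alternatives. With the prior following the level it passed the threshold (difference 1.91), with aldosterone replicate 1 (1.911) or replicate 2 (1.916) left out too, and in the other 15 it did not pass. With arrays left out it ran from 1.67 to 2.16. Its change relative to the kinases ran from 1.49 to 1.85 over 10 alternatives. The number of members called was 1 with the prior following the level and 0 to 2 with arrays left out. Rows called were 0 with the constant prior, 21 with the prior following the level, 12 with rows under a mean of 4 left out, 6 with the replicate block and the prior following the level, and 0 with arrays left out under the constant prior. Under the prior following the level they were 7 without vehicle replicate 1, 8 without vehicle replicate 2, 137 without aldosterone replicate 1 and 142 without aldosterone replicate 2. Where a group is left with 1 array, its spread is taken from the other group. The cotransporter median was -0.056 with rows under a mean of 4 left out, where 3 genes remain, and -0.33 to 0.11 with arrays left out, and the kinase median was 0.016 to 0.25 with arrays left out, -0.013 with quantile normalization and -0.0085 with centring. The direction of small differences turned. Quantile normalization gave 0.0012 for Slc12a7 and -0.013 for Wnk2, and centring gave -0.0085 for Wnk2. With arrays left out the ranges were -0.72 to -0.33 for Slc12a4, which kept its direction, -0.29 to 0.18 for Slc12a7, -1.09 to 0.27 for Slc12a8, -0.44 to 0.28 for Wnk1, -0.11 to 0.21 for Wnk2, -0.070 to 0.049 for Wnk4 and -0.0999 to 0.34 for Oxsr1. Beyond the arrays left out, the cause was not tested. The replicate numbers could not be shown to pair the rats: the replicate 1 minus 2 differences of the groups correlated at 0.15 over all rows, which are not independent, and at 0.093 over those with a mean of 4 or more. With the replicate block the adjusted p of Slc12a2 was 0.629, and 0.136 together with the prior following the level. The mean over a gene's rows changes no member, as each has 1 row.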
